A study of Mus musculus with 2 samples.

Results

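A set of 9 genes that start, restrain or dissolve blood clots were followed across the endothelial classes of the mouse lung: Thbd, Procr, Tfpi, F3, Vwf, F8, Plat, Plau and Plaur. They were taken as a named list, 9 of the 31053 genes in the count tables, and their transcripts were counted as unique molecular identifiers (UMIs, 1 per captured RNA molecule) in droplet barcodes that showed 1000 to 5000 genes and had less than 20% of their UMIs from mitochondrial genes. The lungs came from wild-type C57BL/6 mice, young adult males per the study's methods, killed 6 h after an injection of 100 µl into the tail vein. The control group received phosphate-buffered saline and the metastatic group 200000 cells of B16-F10, a mouse skin melanoma line labelled with a green dye. Cells positive for PECAM1, a junction protein of endothelium that platelets and some leukocytes also carry, were sorted and run on the 10x Genomics 3′ platform. Each group held 1 library made from 2 mice and pooled, so mouse-to-mouse variation cannot be told apart from the treatment and no test between groups was possible.

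The endothelium of the lung keeps blood fluid while it can support a clot within minutes. Tissue factor (F3) starts coagulation and TFPI blocks it. Thrombomodulin (Thbd) binds thrombin and, with the endothelial protein C receptor (Procr), turns it towards activating protein C, an anticoagulant. Von Willebrand factor (Vwf) is stored in Weibel-Palade bodies, catches platelets and carries factor VIII (F8). Tissue-type plasminogen activator (Plat) and urokinase (Plau) generate plasmin, which dissolves fibrin, and the receptor Plaur holds urokinase at the cell surface.

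Barcodes were placed in a class by 2 or more detected markers: Ednrb, Fibin and Tbx2 for aerocytes, the thin capillary cells of the gas exchange surface, Slc6a2, Car8 and Bst1 for veins, Gja5, Bmx and Fbln5 for arteries, and Gpihbp1, Aplnr, Kit and Lpl, with none of the other classes, for general capillary cells. Of 7134 control and 6466 metastatic barcodes, 5020 and 4519 were general capillary, 1364 and 1086 aerocyte, 247 and 304 vein and 63 and 59 artery, and 16 barcodes passed in both libraries. At least 4 of 5 endothelial markers were detected in 95.7% to 100% of the barcodes of each class. All 4 aerocyte and all 4 vein markers outside the rule were highest in their own class in both libraries, against 3 of 4 for artery (not Sox17) and 3 of 4 for general capillary (not Ptprb). The artery class rests on few cells, and 81.0% and 91.5% of them had just the 2 markers required. Barcodes with 2 or more of 5 platelet markers were 336 of 5020 in the control and 485 of 4519 in the metastatic general capillary class.

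To show sequence before RefSeq starts, the 250 bases ahead of each start (GRCm38.p6) were searched on both strands for TGANTCA, the AP-1 motif. The promoters found were 6, for 5 of the 9 genes (Procr, F3, Plaur, F8 and 2 of Tfpi). Procr, F3 and Plaur held it and are shown 5′ to 3′ with each match in capitals, while the window of F8 and both of Tfpi held none. RefSeq starts can differ from the gene positions given below. The F8 window (75380042 to 75380291) and 1 Tfpi window (84474175 to 84474424) lie inside those positions. The Procr window runs to 155751216, past the Procr start given below. Sequence before the F8 start given below was not searched. The same motif stood in 6.75% of all 32851 promoters of this length, and a match of letters is a description, not a bound site. F3 had 2 matches, whose first bases lay 146 and 135 bases before the start, Procr 1 at 154 and Plaur 1 at 69.
Procr promoter, chr2:155750967-155751216, plus strand: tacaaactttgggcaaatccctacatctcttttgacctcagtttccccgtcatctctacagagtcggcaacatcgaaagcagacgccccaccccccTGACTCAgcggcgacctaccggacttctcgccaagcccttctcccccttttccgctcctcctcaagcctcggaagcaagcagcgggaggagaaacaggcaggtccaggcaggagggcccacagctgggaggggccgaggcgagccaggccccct
F3 promoter, chr3:121723287-121723536, plus strand: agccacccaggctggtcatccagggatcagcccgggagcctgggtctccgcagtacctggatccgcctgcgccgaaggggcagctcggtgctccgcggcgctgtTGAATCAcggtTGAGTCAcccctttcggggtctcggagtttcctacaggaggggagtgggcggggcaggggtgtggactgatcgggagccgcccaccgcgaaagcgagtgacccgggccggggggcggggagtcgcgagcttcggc
Plaur promoter, chr7:24462233-24462482, plus strand: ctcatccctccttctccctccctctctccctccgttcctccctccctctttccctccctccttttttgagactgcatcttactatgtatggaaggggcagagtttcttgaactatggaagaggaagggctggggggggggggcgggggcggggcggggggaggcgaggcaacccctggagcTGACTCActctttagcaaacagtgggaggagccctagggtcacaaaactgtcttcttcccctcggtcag
The KLF-type motif CCNCNCCC, common in endothelial promoters, stood in 4 of the 6 windows (Procr, F3, Plaur and 1 of Tfpi) against 45.9% of all promoters. TATAAA stood in 1 window of Tfpi (12.4% of all), and TGACGTCA (1.55% of all) in none. With no peak or binding data in the series, these windows were not set against a measurement.

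Levels below are CPM, the UMIs of a gene in a class scaled to a class total of 1000000, ratios are log2 of metastatic over control CPM, and brackets hold 95% intervals that cover counting error only, not differences between mice. Genes are compared between classes or libraries, never with each other, since a UMI count also depends on how well a transcript is captured. A member was called higher or lower between libraries at a log2 ratio of at least 0.5 in size with 50 or more UMIs, and between classes at a log2 ratio of at least 1 in size in both libraries.

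**Figure D1:**
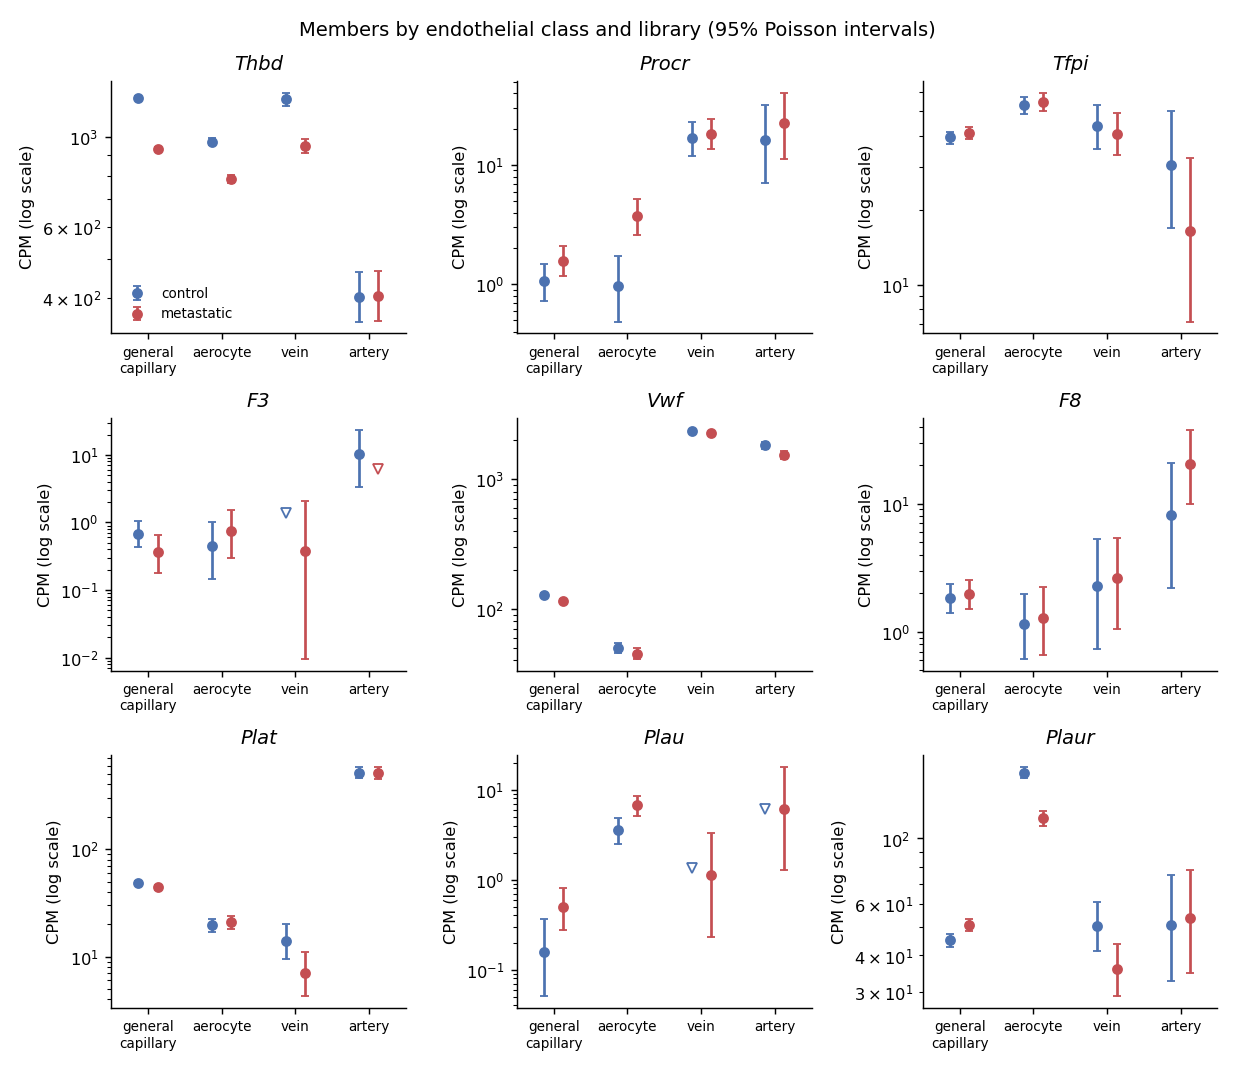
Level of each gene in CPM (log scale) by endothelial class, for the control (blue) and metastatic (red) library, with 95% Poisson intervals and open triangles at the level of 3 UMIs where no UMI was found. Vwf sits highest in vein and artery, Plat in artery and Plaur in aerocyte in both libraries, and Thbd is lower in the metastatic library in 3 of 4 classes.

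Thbd, on mouse chromosome 2 (148404466 to 148408188, minus strand, GRCm38), was detected in most capillary cells and stood lower in the metastatic library. Control general capillary cells held it at 1245 CPM (1233 to 1258) and metastatic ones at 934 CPM (923 to 945), with a log2 ratio of -0.42 (-0.44 to -0.39) from 39977 and 28280 UMIs. In aerocytes it stood at 972 and 784 CPM, and in veins at 1237 and 948 CPM. These 3 classes thus shifted the same way, with log2 ratios of -0.31 in aerocyte (-0.35 to -0.27) and -0.38 in vein (-0.46 to -0.30), all short of the size set for a call. In artery, where Thbd was lowest, it stood at 404 and 405 CPM, with an interval of -0.29 to 0.30 that holds 0.

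The lower Thbd level was spread over the capillary cells. With every cell thinned to 2000 UMIs, 84.7% of control (83.6 to 85.7, n = 4947 cells) and 76.7% of metastatic general capillary cells (75.4 to 77.9, n = 4461 cells) had a Thbd UMI, against 95.7% and 92.2% before thinning. The mean was 2.48 UMIs per thinned control cell and 1.92 per thinned metastatic cell. Thinning left out 73 control and 58 metastatic cells as too shallow. Lymphoid barcodes (B, T or NK markers), which should lack Thbd, gave 4.65% of 43 and 4.08% of 49 thinned cells, at median depths of 4540 and 4722.5 UMIs against 5950.5 and 6275 UMIs in the general capillary class, so the capillary shares stood well above the lymphoid ones. Unthinned, those lymphoid barcodes held Thbd at 13.6 and 30.3 CPM.

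Procr, on chromosome 2 (155751117 to 155755471, plus strand), was a gene of larger vessels. Its level in the control library was 16.8 CPM in vein (37 UMIs) and 16.2 CPM in artery (8 UMIs), against 1.06 CPM in general capillary cells (34 UMIs). The vein level was higher than the general capillary level by a log2 ratio of 3.99 (3.27 to 4.70) in the control and 3.53 (2.93 to 4.14) in the metastatic library, and vein and artery overlapped. Between the libraries its general capillary level was 1.06 and 1.58 CPM, a log2 ratio of 0.58 (-0.08 to 1.26), whose interval holds 0. In aerocytes the sums of 11 and 35 UMIs gave 0.97 and 3.73 CPM, but a single metastatic barcode held 20 of the 35, and without the top barcode of each library 10 and 15 UMIs were left (log2 ratio 0.86, -0.39 to 2.17).

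Tfpi, on chromosome 2 (84432855 to 84476775, minus strand), had similar levels in the capillary and vein classes. It stood at 39.3 and 40.9 CPM in general capillary cells, 52.9 and 54.7 CPM in aerocytes and 43.5 and 40.7 CPM in veins. Its general capillary log2 ratio between libraries was 0.06 (-0.06 to 0.17). The aerocyte level exceeded the general capillary level by a log2 ratio of 0.43 in the control and 0.42 in the metastatic library. The artery sums of 15 and 8 UMIs were too few to place. Near-empty barcodes of 11 to 50 UMIs held Tfpi at 53.3 (control) and 45.3 CPM (metastatic), while lymphoid barcodes held 0 and 2 UMIs. The part of RNA outside cells in the class values was not tested.

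F3, on chromosome 3 (121723537 to 121735048, plus strand), was nearly undetected in these endothelial cells. General capillary cells held 22 control and 11 metastatic UMIs (0.69 and 0.36 CPM), aerocytes 5 and 7, veins 0 and 1 and arteries 5 and 0. At 2000 UMIs 4 of 4947 control and 2 of 4461 metastatic general capillary cells had a F3 UMI, and 0 of 43 and 0 of 49 lymphoid cells did, so a difference in F3 between the libraries was not detectable at this depth. The near-empty barcodes of 11 to 50 UMIs held F3 at 33.5 and 34.3 CPM, and those found near-empty in 1 library only held 0 UMIs of it. The upper limits of the latter were 48.1 and 70.3 CPM, above the levels in all near-empty barcodes, so absence cannot be read from them. All near-empty barcodes held 5179 CPM of melanoma markers in either library, though the control mice received no melanoma cells. Of 25507 control and 26993 metastatic near-empty barcodes, 5193 and 3436 had fewer than 11 UMIs in the other library. Those held 2844 and 2440 CPM of the melanoma markers. How this RNA reached the control library was not tested. The general capillary cells without platelet RNA held 1.85 and 2.62 CPM of these markers.

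Vwf, on chromosome 6 (125546774 to 125686679, plus strand), marked veins and arteries. It stood at 2332 and 2257 CPM in vein, 1813 and 1519 CPM in artery, 129 and 115 CPM in general capillary cells and 49.9 and 45.2 CPM in aerocytes. The 4 classes kept this order in both libraries with no overlap of neighbours. Vein exceeded general capillary by a log2 ratio of 4.18 in the control and 4.29 in the metastatic library, and artery by 3.82 and 3.72. Between libraries the log2 ratios were -0.16 in general capillary (-0.22 to -0.09), -0.05 in vein (-0.10 to 0.01) and -0.25 in artery (-0.40 to -0.11).

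Platelets also carry Vwf, and platelet RNA moved with the library. The 10 control and 11 metastatic barcodes with platelet and few endothelial markers held Vwf at 753 and 433 CPM. General capillary barcodes with 2 or more platelet markers held it at 154 and 169 CPM, those without at 127 and 108 CPM. Leaving out barcodes with RNA of any other cell type gave a general capillary log2 ratio of -0.24 for Vwf.

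F8, on the X chromosome (75172715 to 75382615, minus strand), was scarce. General capillary cells held 59 and 60 UMIs (1.84 and 1.98 CPM), a log2 ratio of 0.11 (-0.43 to 0.65). Artery held 4 and 10 UMIs (8.11 and 20.6 CPM), of which 3 and 7 lay in single barcodes. Its artery level passed the class threshold in both libraries with log2 ratios of 2.14 and 3.38. In the metastatic library 2 artery barcodes had 2 or more of the lymphatic markers Prox1, Mmrn1, Ccl21a and Reln, whose sum in the class was 1 UMI in the control and 720 UMIs in the metastatic library, and these 2 barcodes held 9 of the 10 F8 UMIs. Without them, a choice made after the values were seen, 1 metastatic F8 UMI was left (2.14 CPM, log2 ratio over general capillary cells 0.11, -5.22 to 2.64), so the F8 call in artery was lost.

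Plat, on chromosome 8 (22757727 to 22782844, plus strand), was the artery gene of the fibrinolytic members. It stood at 517 CPM (456 to 585) in control and 514 CPM (452 to 582) in metastatic artery, against 48.4 and 44.3 CPM in general capillary cells and 19.6 and 20.9 CPM in aerocytes. Artery thus exceeded general capillary by a log2 ratio of 3.42 in the control and 3.54 in the metastatic library, with UMIs in 44 of 63 and 40 of 59 artery barcodes. Between the libraries the artery log2 ratio was -0.01, and the general capillary log2 ratio was -0.13 (-0.23 to -0.02). In vein 31 and 19 UMIs gave 14.1 and 7.10 CPM, a log2 ratio of -0.98, but 1 control barcode held 17 of the 31, and without the top barcode of each library the levels were 6.37 and 6.36 CPM.

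Plau, on chromosome 14 (20836660 to 20843385, plus strand), was low and found mainly in aerocytes. Aerocytes held 40 and 63 UMIs, or 3.53 CPM (2.52 to 4.81) and 6.71 CPM (5.16 to 8.59), a log2 ratio of 0.93 (0.33 to 1.54) spread over 36 and 52 barcodes with at most 2 and 3 UMIs each. General capillary cells held 5 and 15 UMIs, veins 0 and 3 and arteries 0 and 3, the last all in the 2 artery barcodes with lymphatic markers. Aerocytes exceeded general capillary cells by a log2 ratio of 4.50 (3.16 to 6.20) in the control and 3.76 (2.93 to 4.68) in the metastatic library.

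Plaur, on chromosome 7 (24462484 to 24475968, plus strand), had library differences of opposite sign between classes with counting intervals clear of 0. In aerocytes, where it was highest, the control level was 168 CPM (160 to 175) and the metastatic level 117 CPM (110 to 124), with a log2 ratio of -0.52 (-0.63 to -0.41). In vein it stood at 50.3 and 35.9 CPM, a log2 ratio of -0.49 (-0.90 to -0.08). In general capillary cells it stood at 45.1 and 50.8 CPM, a log2 ratio of 0.17 (0.07 to 0.28), whose direction depended on the marker rule. At 2000 UMIs 26.7% of control and 20.7% of metastatic aerocytes had a Plaur UMI, while the general capillary shares were 8.11% and 8.07%, inside the intervals of lymphoid barcodes (4.65% of 43 cells, 0.57 to 15.8, and 6.12% of 49 cells, 1.28 to 16.9). Without thinning, lymphoid barcodes held Plaur at 27.1 and 45.4 CPM, myeloid barcodes at 253 and 210 CPM and neutrophil barcodes at 358 and 336 CPM, and the part of those cells' RNA in the capillary value was not tested.

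**Figure D2:**
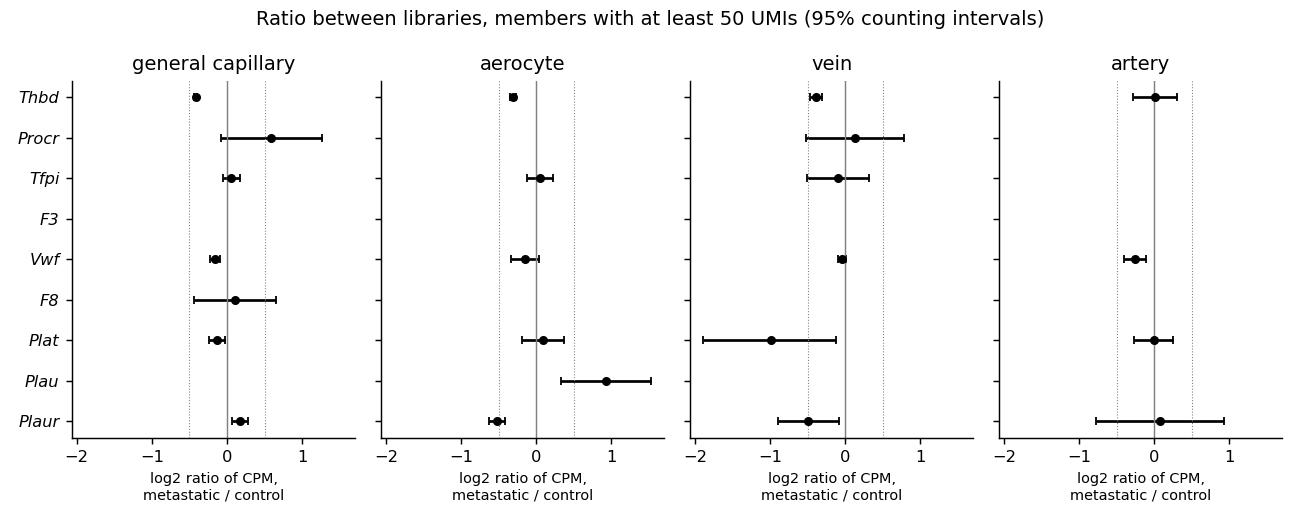
Log2 ratio of metastatic to control CPM (x axis) for each gene with at least 50 UMIs, by endothelial class, with 95% counting intervals and dotted lines at a log2 ratio of 0.5 in size. Thbd lies left of 0 in general capillary, aerocyte and vein, and Plaur lies left of 0 in aerocyte (-0.52) but right of it in general capillary (0.17).

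Counted over the list, few members crossed the threshold between libraries. In general capillary cells 1 of the 7 members with 50 UMIs was higher (Procr) and 0 were lower, where 6.19% and 3.44% of all genes with 50 UMIs were higher and lower. In aerocytes 1 of 6 was higher (Plau) and 1 lower (Plaur), against 5.5% and 2.61%. In vein 0 of 6 were higher and 1 lower (Plat), against 8.01% and 4.62%, and in artery 0 of 4 crossed in either direction, against 9.97% and 8.11%. The median log2 ratio of the members, those below 50 UMIs included, was 0.06 in general capillary, 0.09 in aerocyte, -0.10 in vein and 0.01 in artery. The medians over all genes with 50 UMIs were 0.01 to 0.03, a set with another minimum, so the medians are not like for like. In aerocytes the 6 members with 50 UMIs stood at -0.52 (Plaur), -0.31 (Thbd), -0.14 (Vwf), 0.05 (Tfpi), 0.09 (Plat) and 0.93 (Plau). Vein and artery medians rest on the 7 members with UMIs in both libraries.

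Between classes more members crossed. With 7 members holding 50 UMIs in the vein and artery comparisons and 8 in that of aerocytes, artery had, against general capillary cells, 4 members higher (Plat, Procr, Vwf and F8) and 1 lower (Thbd), where 3.72% and 7.42% of all genes were. Without the barcodes with lymphatic markers, 3 were higher (F8 no longer) and 1 lower. Vein had 2 higher (Procr and Vwf) and 1 lower (Plat), against 3.7% and 3.77%. Aerocyte had 2 higher (Plau and Plaur) and 2 lower (Plat and Vwf), against 3.98% and 5.17%. Plat and Vwf thus lay on opposite sides in vein, as Thbd and Procr did in artery.

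The log2 ratio of Plaur in general capillary cells differed with how many of the 4 class markers a cell had, a split made after the values were seen. In cells with 2 markers its control level was 51.1 CPM and its metastatic level 99.5 CPM (log2 ratio 0.96, 0.71 to 1.22). In cells with 3 markers it stood at 43.0 and 47.6 CPM (0.15, 0.02 to 0.28), and in cells with all 4 at 49.1 and 32.7 CPM (-0.59, -0.84 to -0.33). Vwf went from -0.40 (-0.55 to -0.26) at 2 markers to -0.13 (-0.22 to -0.05) at 3 and 0.09 (-0.07 to 0.26) at 4. Plat stood at -0.23, -0.02 and -0.41 and Tfpi at -0.01, 0.13 and -0.11, with no common direction along the number of markers. Thbd stood lower at each number, with log2 ratios of -0.34, -0.42 and -0.43. Whether reading fewer markers selects other cells in the 2 libraries was not tested.

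**Figure D3:**
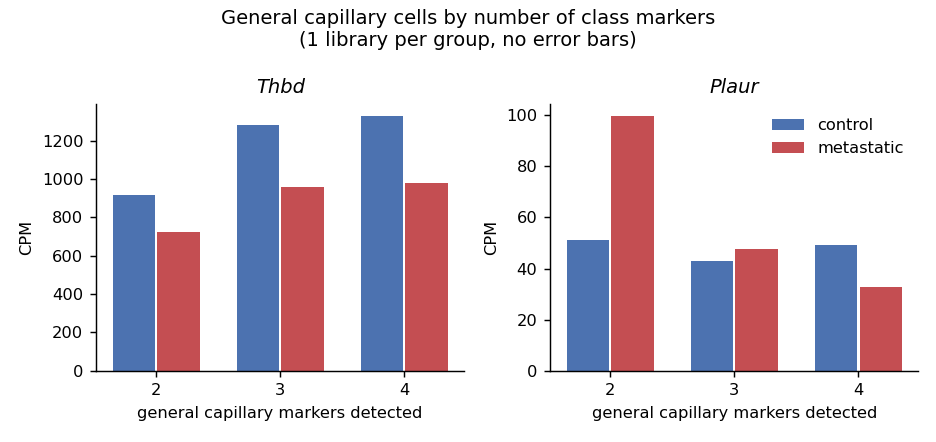
CPM of Thbd and Plaur in general capillary cells with 2, 3 or 4 class markers detected (x axis), control in blue and metastatic in red, 1 library per bar. Thbd is lower in the metastatic library at each number, whereas Plaur goes from 51.1 against 99.5 CPM at 2 markers to 49.1 against 32.7 CPM at 4.

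Of 51 other genes of coagulation and fibrinolysis, 27 had 50 UMIs in general capillary cells, 3 of these were higher in the metastatic library and 0 lower, where 6.19% and 3.44% of all genes were. Their median log2 ratio was 0.15 (-0.044 with barcodes of other cell types' RNA left out). The 3 were the platelet genes Itga2b (0.62) and Gp1ba (0.60) and the C1 inhibitor gene Serping1 (0.64). Without those barcodes Itga2b and Serping1 both stood at -0.16. Itga2b is itself among the platelet markers that picked the barcodes left out, so its value there is not independent of the filter. The 5 genes with the most UMIs had log2 ratios between -0.06 and 0.15: the plasmin-receptor pair S100a10 (-0.06) and Anxa2 (0.10), the heparan sulfotransferase Hs3st1 (0.15), the nucleotide-degrading Entpd1 (0.15) and the cargo receptor Lman1 (-0.05), which helps factor VIII leave the endoplasmic reticulum.

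**Figure D4:**
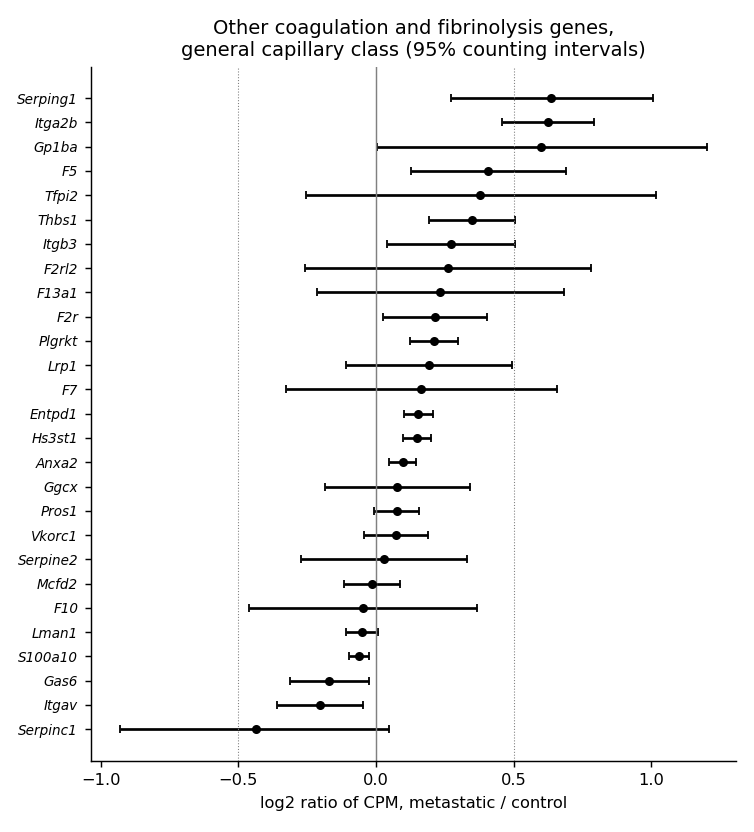
Log2 ratio of metastatic to control CPM (x axis) in general capillary cells for the 27 other coagulation and fibrinolysis genes with at least 50 UMIs, ordered by ratio, with 95% counting intervals and dotted lines at a log2 ratio of 0.5 in size. The ratios lie between -0.44 (Serpinc1) and 0.64 (Serping1), with 3 genes past the upper line and 0 past the lower.

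In aerocytes 4 of 21 genes of the same list were higher (F5, Thbs1, Itga2b and Itgb3) and 0 lower, where 5.5% and 2.61% of all genes were. The 5 platelet markers summed, Itga2b among them, were there at 76.6 (control) and 158 CPM (metastatic), and their part in these values was not tested. In vein 1 of 15 was higher (Vkorc1) and 2 lower (Itgb3 and Itgav), against 8.01% and 4.62%, and in artery 3 of 8 were higher (Anxa2, S100a10 and Vkorc1) and 1 lower (Mcfd2), against 9.97% and 8.11%. The artery counts include the 2 metastatic barcodes with lymphatic markers, whose part in these values was not tested. The fibrinogen chain genes Fga and Fgb and plasminogen (Plg), which the liver makes, had 0 UMIs in general capillary cells. The remaining fibrinogen chain gene, Fgg, had 0 control and 3 metastatic UMIs there.

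Some genes of Vwf storage and release differed more than Vwf itself. Of 14, 12 had 50 UMIs in general capillary cells, with a median log2 ratio of 0.07. Unc13d was higher (0.86, from 24 and 41 UMIs) and 2 were lower, where 6.19% and 3.44% of all genes were. Myrip, which with Rab27a ties Weibel-Palade bodies to actin, stood at 97.0 and 48.8 CPM (log2 ratio -0.99, -1.08 to -0.90), and Rab27a at 91.3 and 59.9 CPM (-0.61, -0.69 to -0.52). Myrip was past the threshold in all 4 classes (-1.02 in aerocyte, -1.02 in vein and -0.58 in artery, the last with an interval of -1.24 to 0.06). Edn1, the endothelin gene, stood at 288 and 360 CPM in general capillary cells (0.32), 94.7 and 140 CPM in aerocytes (0.57) and 199 and 299 CPM in veins (0.59). In aerocytes 2 of 9 genes with 50 UMIs were higher (Angpt2 and Edn1) and 2 lower (Rab27a and Myrip), against 5.5% and 2.61%. In vein 3 of 9 were higher (Angpt2, Edn1 and Rab3d) and 1 lower (Myrip), against 8.01% and 4.62%. In artery, barcodes with lymphatic markers included, 1 of 4 was higher (Cd63) and 1 lower (Myrip), against 9.97% and 8.11%.

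General capillary cells were also split by Vwf. At 2000 UMIs 808 of 4947 control (16.3%) and 700 of 4461 metastatic cells (15.7%) had a Vwf UMI, against 0 of 43 and 0 of 49 lymphoid cells, which at the floor of 3 counts allows up to 6.98% and 6.12% of those cells. Counts were uneven, with 74.8% and 75.5% of the Vwf UMIs in the tenth of cells that held most. Plat was higher in Vwf-positive cells, by a log2 ratio of 0.89 in the control (0.57 to 1.20) and 1.10 in the metastatic library (0.79 to 1.41). The control value was smaller with 3 class markers required, as given below. Both genes stood higher in cells with 2 class markers than with 4. Plat stood at 106 and 35.4 CPM in the control and at 90.4 and 26.6 CPM in the metastatic library. Vwf stood at 234 and 86.6 CPM in the control and at 177 and 92.4 CPM in the metastatic library. Of the 8 other members 4 had 50 UMIs and 0 reached a log2 ratio of 1 in both libraries, where 0.719% of all genes did so upwards and 0.47% downwards. Of the 7 vein markers 4 were higher in the same cells with both intervals clear of 0 (Slc6a2, Nr2f2, Vcam1 and Prss23) and 0 lower. Of the 7 artery markers 3 were higher (Gja5, Bmx and Efnb2) and 1 lower (Sox17), and of the 7 aerocyte markers 0 were higher and 1 lower (Car4). Slc6a2 had log2 ratios of 2.56 in the control and 3.58 in the metastatic library, and Sox17 of -0.45 and -0.34. Of the 8 general capillary markers 4 were higher and 2 lower. The 5 platelet markers summed stood higher by 2.03 and 1.51. The part of platelets and of vein or artery cells short of their class rule in these values was not tested.

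By Pearson's r over the 8 sums of 4 classes and 2 libraries, on log2(CPM + 10), the genes most like Vwf were Limch1, Jam2 and Myof (r = 0.99 to 1.00) and those most like Plat were Atrx, Xkr6 and Pcsk5 (r = 0.99). Lamc1, Serpina3m and Sccpdh were most like Plaur (r = 0.97 to 0.98), and Kif13a, Coro1c and Smad5 most like Thbd (r = 0.97 to 0.98). Most like Tfpi were Dcbld2, Lclat1 and Klhdc3 (r = 0.98 to 0.99), and most like Procr were Sorbs2, Crispld1 and Fstl1 (r = 0.98 to 0.99). For the scarce F8, whose metastatic artery sum lay mostly in barcodes with lymphatic markers, they were Cxxc5, Kcnq1ot1 and Ifi207 (r = 0.98 to 0.99). For the scarce Plau, whose 3 metastatic artery UMIs all lay in those barcodes, they were Rspo3, Vangl1 and Rnf24 (r = 0.95 to 0.96). The 8 sums share libraries and classes, the small artery sums among them, so these values describe likeness only.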

How the data were processed

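Lung cells sorted for PECAM1 were profiled in 1 control and 1 metastatic library. The authors ran Cell Ranger on mm10 and deposited raw UMI counts for each gene in each barcode, neither normalized nor called as cells. Per the file headers the software was version 3.1.0, and the annotation release is not given in the sources used here. The libraries held 67929614 and 64733724 UMIs, and the 7134 and 6466 barcodes kept had medians of 6272.5 and 6526.5 UMIs. Groups were taken from the treatment labels. Gene positions come from GENCODE M21 on GRCm38, the same assembly.

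Barcodes with 1000 to 5000 genes and under 20% mt- UMIs were classed by markers. Barcodes meeting more than 1 rule (46 and 32) or no rule (394 and 466) were left out of the classes. Doublets stayed in, and leaving out the 407 and 334 highest-scoring barcodes was an alternative. Counts were summed by class and given as CPM with exact Poisson intervals. Ratios carry exact conditional binomial intervals and shares Clopper-Pearson intervals, at 95%. Shares used cells thinned to 2000 UMIs. Intervals and floors (3 counts) cover counting error only. Cells are not replicates, so no p-value was computed. The ratio and its interval were tested on simulated data.

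Named were all 9 members, pathway genes with 50 UMIs and a log2 ratio of at least 0.5 in size in general capillary cells, those past the same limits in the other classes, the 5 pathway genes with the most UMIs, and the 3 genes most like each member with 100 UMIs. Members and lists were chosen with earlier results of these data known. The split by number of class markers was added after the values were seen. A further pathway gene is not reported here. Alternatives covered filters, marker rules, doublets, other cells' RNA, shared barcodes, scaling (TMM, other totals, per-cell means), thinning depth and thresholds. Analyses used Python 3 with numpy and scipy.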

Additional observations from a re-analysis of the deposited data

Results flagged for a closer look

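Plaur differed between the libraries in opposite directions in different classes, with both counting intervals clear of 0: its log2 ratio of metastatic over control was 0.17 in general capillary cells (0.07 to 0.28), against -0.52 in aerocytes (-0.63 to -0.41) and -0.49 in vein (-0.90 to -0.08). The difference between classes was not tested, since each group is 1 library. The positive value in general capillary cells lay at -0.07 when 3 class markers were required and at -0.003 when markers were read at 2000 UMIs, so its direction depends on the marker rule, and the aerocyte value kept its direction under every alternative run.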

How the results depend on the processing

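Of 517 alternative values for single genes, 483 stayed within the counting interval of the value reported, 31 moved outside it and 3 reversed, counting as reversed only a change of sign in a value past the size and UMI thresholds for a call. A further 39 values below those thresholds changed sign, 28 of them within that interval and 11 outside it. Reversed were Plat in vein with 3 class markers (0.15), and Serping1 and Itga2b in general capillary cells without barcodes of other cell types' RNA (-0.16 each). Itga2b is among the markers that picked those barcodes, so its reversal is not independent of the filter. Among values that moved, Plaur in general capillary cells went to -0.07 with 3 markers and -0.003 with markers read at 2000 UMIs, Procr in aerocytes to 0.50 without doublets, and F8 in artery from 1.34 to -1.92 without barcodes with 2 lymphatic markers. Without barcodes of other cell types' RNA the median of the other coagulation and fibrinolysis genes in general capillary cells was -0.044. With 3 markers the artery median of the members was -0.65, and with markers read at 2000 UMIs the vein median of the Vwf storage list was -0.32. The members counted as lower in aerocytes than in general capillary cells were 1 when overlapping classes were counted in each and 1 by per-cell means. With 20 UMIs as the minimum, general capillary cells had 2 members higher and 1 lower, aerocytes 2 higher and artery 1 lower between libraries; with 200 UMIs there were 0 higher in general capillary, 0 higher in aerocyte and 0 lower in vein. At a log2 ratio of 0.3, 1 member was lower in general capillary, 2 in aerocyte and 3 in vein, and at 1 there were 0 higher in general capillary, 0 higher or lower in aerocyte and 0 lower in vein.

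The share of general capillary cells with a Thbd UMI was 66.0% (control) and 56.3% (metastatic) at 1000 UMIs, 93.2% and 85.4% at 3000 and 95.7% and 92.2% unthinned; for Vwf the shares were 9.54% and 8.34%, 21.1% and 21.5%, and 31.2% and 32.3%. At 2000 UMIs the Thbd share was 86.3% in the control with a minimum of 1500 genes, 86.6% and 78.5% with 3 markers and 85.7% in the control with markers read at 2000 UMIs, and the Vwf share was 15.0% in the control without other cells' RNA and 14.6% in the metastatic library without shared barcodes. Each such setting draws the thinned UMIs again. In Vwf-positive over Vwf-negative cells, the Thbd log2 ratio was 0.033 in the control with a minimum of 300 genes, and in the metastatic library 0.039 under 10% mt- UMIs and 0.060 without shared barcodes, against -0.08 and 0.15 as first computed, and the Plat log2 ratio was 0.40 in the control with 3 markers. In barcodes near-empty in 1 library only, Thbd stood at 430.6 and 476.5 CPM, Vwf at 143.5 CPM in the control and F3 at 0 and 0 CPM (upper limits 48.1 and 70.3 CPM). The cause of these moves was not tested. The alternatives for Vwf-positive cells and the removal of the top barcode or of barcodes with lymphatic markers were chosen after seeing the data.

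Subtracting free RNA was not run: genes of cells outside the classes stood at 7.96% to 89.7% of their near-empty level in the classes and melanoma markers at 0.0325% and 0.0418% over all barcodes, which leaves no single share to subtract. No paired analysis was possible because each group has 1 library and the labels carry no replicate numbers. Depth limits F3, F8, Plau and Procr, and every artery value, to wide intervals.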

Other observations

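Barcodes that met no class rule, 394 in the control and 466 in the metastatic library, held Plaur at 76.9 and 159 CPM, Procr at 1.42 and 8.08 CPM and F3 at 2.83 and 7.68 CPM. Of these barcodes, 53.8% and 54.5% had at least 4 of 5 endothelial markers, and the values belong to no class.

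Values of 4 further genes of the pathway, chosen after their values were seen, are given for completeness. F2r, the thrombin receptor PAR1, stood at 13.9 and 16.1 CPM in general capillary cells (log2 ratio 0.21, 0.03 to 0.40) and F2rl1 had 4 and 4 UMIs. Pros1, the cofactor of activated protein C, stood at 75.5 and 79.6 CPM (log2 ratio 0.08, -0.01 to 0.16). Adamts13, the protease that cuts Vwf, had 1 control and 10 metastatic UMIs in general capillary cells, and 7 and 7 UMIs in aerocytes.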
